A study of Mus musculus with 16 samples.

Results

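The GABAergic neuron and interneuron lineage genes followed here were Gad1, Gad2, Slc32a1, Dlx1, Dlx2, Dlx5, Dlx6, Lhx6 and Gsx2. These 9 genes, of 18193 genes measured, were found by gene symbol in the annotation of the array, where they had 15 of the 34945 probe sets that name a single gene. Total RNA of mouse embryo heads was hybridised to 1-colour Affymetrix arrays with 6 arrays at embryonic day 9.5 (E9.5), 4 at E11.5 and 6 at E13.5, each from a biological replicate per the submitters. The samples are titled embryo head under a series title on the brain, and how much of the face and neck was included, the strain and the sex were not given. The E9.5 and E11.5 RNA was labelled with Affymetrix's IVT kit and the E13.5 RNA with Ambion's MessageAmp II-Biotin Enhanced kit, so in any comparison with E13.5 the labelling kit and the stage cannot be told apart. Values are RMA intensities, given linearly or as log2. Each gene is represented by its probe set with the highest mean log2 intensity over the 16 arrays. Brightest and dimmer refer to this mean, which can favour a probe set that is high at only some stages.

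GABA is the main inhibitory transmitter of the adult brain. It is made from glutamate by the decarboxylases encoded by Gad1 and Gad2 and is loaded into synaptic vesicles by the transporter encoded by Slc32a1. In the forebrain, GABAergic neurons arise in the ganglionic eminences of the ventral telencephalon, where progenitors express the homeobox factor Gsx2, dividing and newly postmitotic cells express Dlx1 and Dlx2, and postmitotic cells express Dlx5 and Dlx6. Lhx6 is a LIM homeobox factor of interneurons that leave the medial ganglionic eminence for the cortex. GABAergic neurons of the midbrain, hindbrain and spinal cord use other factors, and the Dlx genes are also active outside the brain, in the neural crest mesenchyme of the pharyngeal arches and in placodal ectoderm. In bulk tissue, a change in the number of such cells and a change in the RNA per cell cannot be told apart.

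In the mouse genome, Dlx1 and Dlx2 are neighbours on chromosome 2 and Dlx5 and Dlx6 are neighbours on chromosome 6, by RefSeq. Antisense or other noncoding genes overlap Gad1 (Gad1os), Gad2 (Mir3967), Slc32a1 (Gm14204), Dlx1 (Dlx1as) and Dlx6 (Dlx6os1 and Dlx6os2), and probe sets that could read an overlapping transcript were not separated. Dlx2 and Gsx2 were the 2 genes that were higher at E11.5 than at E9.5 and did not pass the test after E11.5, so the 250 bases before their start sites are shown as annotated (RefSeq, GRCm38.p6). The Dlx2 window is chr2:71546755-71547004 on the minus strand and the Gsx2 window is chr5:75075351-75075600 on the plus strand, each written 5′ to 3′ on the gene's strand with CACGTG in capitals.
Dlx2: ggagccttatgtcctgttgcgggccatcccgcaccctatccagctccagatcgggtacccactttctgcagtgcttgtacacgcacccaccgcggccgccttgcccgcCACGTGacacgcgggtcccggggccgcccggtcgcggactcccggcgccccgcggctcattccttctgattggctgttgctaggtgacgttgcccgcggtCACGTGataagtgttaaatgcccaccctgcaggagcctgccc
Gsx2: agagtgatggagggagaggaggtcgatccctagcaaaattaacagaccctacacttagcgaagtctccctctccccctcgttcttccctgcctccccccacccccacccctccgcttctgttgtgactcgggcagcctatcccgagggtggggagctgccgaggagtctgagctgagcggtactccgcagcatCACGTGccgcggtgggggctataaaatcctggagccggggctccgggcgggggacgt
CACGTG, a palindromic form of the E-box bound by basic helix-loop-helix proteins, lay at -142 and -42 from the start site of Dlx2 and at -57 from that of Gsx2, counted to the motif's leading base. Of 32851 RefSeq windows of the same length, 6.02% held it. It was in none of the other 7 windows of the 5 further genes that had a promoter entry (Gad1, Gad2, Slc32a1, Dlx1 and Lhx6). Searched likewise on both strands were GGGCGG (32.7% of windows), TATAAA (12.4%), CCAAT (33.8%), TAATTA (4.84%) and CAGCTG (13% of windows). Of these, the Dlx2 window held GGGCGG and CCAAT and the Gsx2 window held GGGCGG and TATAAA, all left unmarked here. CACGTG was picked for display after the sequences were read. A match is a description of the letters and not a measured binding site.

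Every array had a lower quartile of 12 and a median of 32, and intensities at or under 12 are treated here as dim. Within a stage, arrays correlated at 0.988 to 0.998. Control transcripts spiked into the RNA (24 poly-A probe sets) were at 8.12 ± 0.25 (log2, SD, n = 6) at E9.5, 5.67 ± 0.15 (n = 4) at E11.5 and 5.40 ± 0.11 (n = 6) at E13.5, and the part of this shift in the results was not tested. Of the E9.5 arrays, samples 13 and 15 had the lowest summed intensity of 15 pan-neuronal genes, 1447 and 1482. The other 4 E9.5 arrays gave 1837 to 2942, with sample 24 the nearest at 1837. The same 2 samples had the highest sums of 10 surface ectoderm genes, 1804 and 1776, against 1033 to 1427 on the other 4. At E13.5, 3 sample names begin with B62 and 3 with B63, and the meaning was not given.

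Between E9.5 and E11.5, 8 of the 9 genes rose and none fell by limma's moderated test (adjusted p under 0.05 over all genes; 31.0% of all genes rose and 26.9% fell). The largest of the 9 differences was that of Gad1, and Dlx6 was the gene that did not pass. The median log2 difference of the 9 genes was 1.24, beside 0.02 for all genes. For the same 8 genes no E11.5 array overlapped with an E9.5 array, as for 37.7% of all genes, and 7 genes rose at least 2-fold, as did 6.08% of all genes. Without the E9.5 samples 13 and 15, the count stayed at 8 and the 8 differences lay between 0.87 for Dlx1 and 3.2 for Gad1. All 15 pan-neuronal genes measured rose over the same interval, with a median of 2.5, and the part of neuron content in these results was not tested.

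Between E11.5 and E13.5, 7 of the 9 genes rose and none fell (27.9% of all genes rose and 27.0% fell), with a median of 0.66 beside 0.00 for all genes. Within the E13.5 title prefixes the consensus correlation in limma was 0.60. With the prefix as a random block, the later rises of Gad2 and Lhx6 did not pass (adjusted p = 0.145 and 0.0673). Dlx1 alone among the 9 rose at least 2-fold (5.78% of all genes), and Dlx2 and Gsx2 did not pass the test. Arrays did not overlap for 6 genes, as for 43.0% of all genes. Across the whole span, E13.5 against E9.5, all 9 genes rose on their brightest probe sets (32.7% of all genes), and the median difference was 1.85. Arrays overlapped for none of them (44.8% of all genes did not overlap). Over that span the dimmest Slc32a1 probe set fell (-0.56 ± 0.09, limma adjusted p = 1.2e-05). The remaining Slc32a1 probe sets and the other Lhx6 one did not pass. Gad1, Gad2, Slc32a1, Dlx1, Dlx5 and Lhx6 rose in both intervals, 6 of 9 against 7.73% of all genes. Over the later interval 11 of the 15 pan-neuronal genes also rose and none fell, with a median of 1.01. Of 10 surface ectoderm genes, 8 rose and 1 fell (median 0.57), with a summed intensity of 1333 to 1419 at E13.5 against 775 to 833 at E11.5. The epidermal keratin gene Krt14 was up by 3.44 ± 0.09 (adjusted p = 2.9e-16), on 2 of its 3 probe sets. The part of neuron content and of ectoderm in the later results was not tested.

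**Figure D1:**
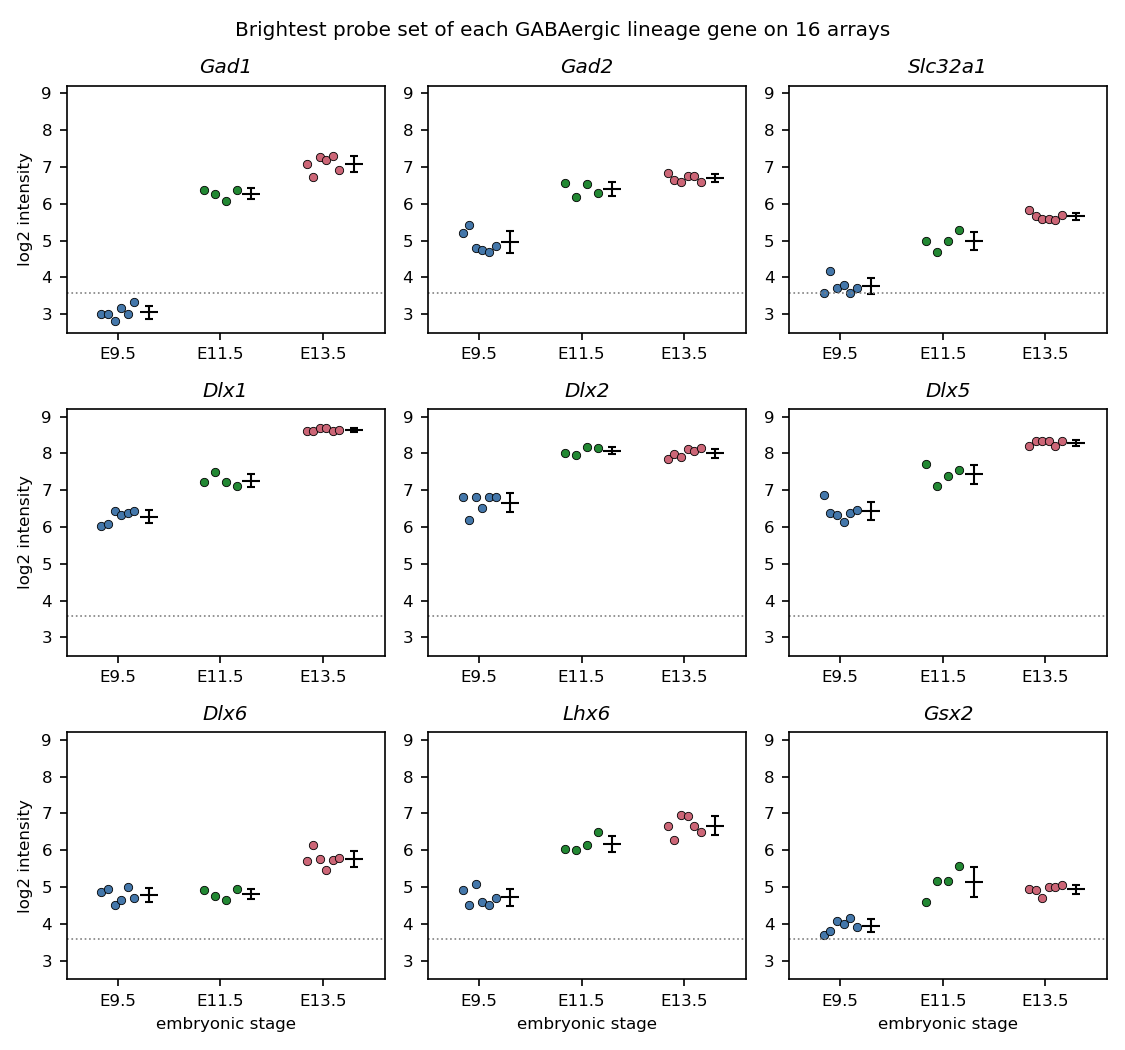
Log2 intensity (y axis) of the brightest probe set of each of the 9 genes, by stage on the x axis, with 6, 4 and 6 arrays. Points are arrays, bars beside them are the mean and SD, and the dotted line marks an intensity of 12; Gad1 lies under that line at E9.5, the Dlx6 points of E9.5 and E11.5 overlap, and so do the Dlx2 and Gsx2 points of E11.5 and E13.5.

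Whether the later interval differed from the earlier one was tested gene by gene as the difference of the 2 changes. The later change was smaller for 6 genes (Gad1, Gad2, Slc32a1, Dlx2, Lhx6 and Gsx2; 27.0% of all genes) and larger for Dlx6 alone (26.3% of all genes). Dlx1 and Dlx5 did not pass, with differences of 0.40 (95% interval 0.04 to 0.75, adjusted p = 0.0561) and -0.15 (-0.60 to 0.30, adjusted p = 0.585). The interval for Dlx1 excludes 0 before adjustment, and without the E9.5 samples 13 and 15 its later change was larger by 0.51 (adjusted p = 0.00434). Leaving out the E9.5 sample 13, the E9.5 sample 15 or the E11.5 sample 36 alone gave 0.45, 0.43 and 0.56, each past the test. With any other single array left out it did not pass. The range was 0.29 to 0.56, with the highest adjusted p, 0.199, without the E11.5 sample 52. All 9 genes differed over the 3 stages by the moderated F test, as did 75.8% of all genes.

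**Figure D2:**
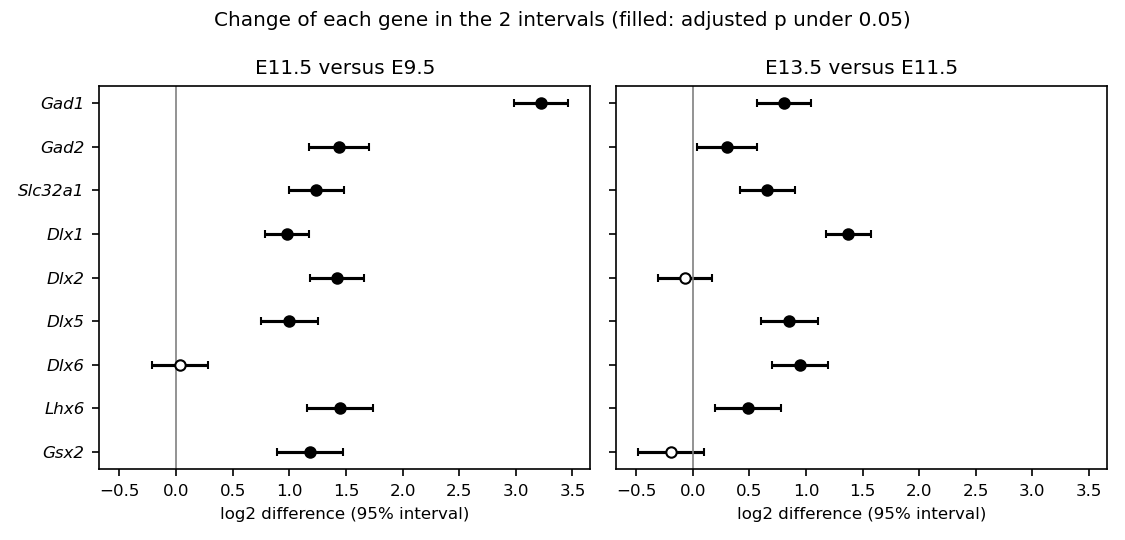
Log2 difference with its 95% interval (x axis) for each of the 9 genes (y axis), E11.5 against E9.5 on the left and E13.5 against E11.5 on the right. Filled points passed the test; Gad1 stands furthest to the right in the earlier interval at 3.22, and Dlx1 in the later one at 1.38.

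Of the genes for GABA synthesis and packaging, Gad1 changed most when each was read on its brightest probe set. Its intensities ran from 7 to 10 at E9.5 (median 8), were 83, 77, 67 and 83 at E11.5, and ran from 106 to 156 at E13.5 (median 141). No array of any stage overlapped with another stage. On this brightest probe set all 6 E9.5 arrays were under 12, the dim range, so its rise has only a lower bound. With values under 12 set to 12, it was at least 6.43-fold higher at E11.5 than at E9.5. At E13.5 it was at least 11.3-fold higher than at E9.5. These bounds do not hold for the other Gad1 probe set, which was 2.16-fold higher at E11.5 and 2.01-fold higher at E13.5 than at E9.5.

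The measured means of Gad1 were 3.05 ± 0.18 (log2, SD, n = 6) at E9.5, 6.27 ± 0.15 (n = 4) at E11.5 and 7.08 ± 0.22 (n = 6) at E13.5. The fitted difference between E11.5 and E9.5 was 3.22 ± 0.12 (SE, limma adjusted p = 5.8e-14), and that between E13.5 and E11.5 was 0.81 ± 0.12 (adjusted p = 5.2e-06). With values under 12 set to 12, the later change minus the earlier was -1.88 ± 0.17 (adjusted p = 7.8e-07), while the measured values gave -2.41; as Gad1 was dim at E9.5, the size of this difference has only a bound as well. The other Gad1 probe set was dimmer by its mean over all arrays, but not at E9.5. There it read 12 to 14, above the 7 to 10 of the brightest one. It read 21 to 34 at E11.5 and 20 to 30 at E13.5. This probe set rose by 1.11 ± 0.12 in the earlier interval (adjusted p = 2.5e-07) and did not pass in the later one (-0.10 ± 0.12, adjusted p = 0.514). Both Gad1 probe sets thus rose up to E11.5, and 1 of the 2 rose after it.

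Gad2 encodes the form of the enzyme found mainly at nerve terminals. Its intensities were 26 to 43 at E9.5 (median 28.5), 95, 73, 93 and 78 at E11.5, and 96 to 114 at E13.5 (median 104.5). The stages did not overlap, but at E11.5 and E13.5 the gap was a single intensity unit, 96 at the lowest E13.5 array against 95 at the highest E11.5 array. Gad2 was higher at E11.5 than at E9.5 by 1.44 ± 0.13 (2.71-fold, adjusted p = 6.5e-09) and at E13.5 than at E11.5 by 0.30 ± 0.13 (1.23-fold, adjusted p = 0.047).

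The later rise of Gad2 sat at the edge of the test. Without the E11.5 sample 36 it was 0.24 (adjusted p = 0.156), and leaving out the E9.5 sample 24, the E11.5 sample 52 or the E13.5 samples B62E6K, B62E7K, B63E5K or B63E6K, one at a time, also ended the call (adjusted p of 0.0524 to 0.118). With the E13.5 title prefix as a random block the adjusted p was 0.145. The other Gad2 probe set (13 to 19 at E9.5, 32 to 39 at E11.5, 44 to 64 at E13.5) rose by 1.28 ± 0.12 (adjusted p = 1.9e-08) and then by 0.49 ± 0.12 (adjusted p = 0.00174). At E9.5, Gad2 read highest on samples 13 and 15, at 37 and 43, against 26 to 29 on the other 4 arrays, and without both its earlier difference was 1.62.

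Slc32a1, which encodes the vesicular transporter of GABA and glycine, lay near the dim range at E9.5. Its intensities were 12 to 18 at E9.5 (median 13), 32, 26, 32 and 39 at E11.5, and 47 to 57 at E13.5 (median 49.5). The stages did not overlap. It rose by 1.24 ± 0.12 to E11.5 (2.36-fold, adjusted p = 1.6e-08) and by 0.66 ± 0.12 to E13.5 (1.58-fold, adjusted p = 6.4e-05). The later change was smaller than the earlier (log2 difference -0.58 ± 0.21, adjusted p = 0.0234), but without the E11.5 sample 52 this was -0.39 with an adjusted p of 0.143, and with the title prefix as a random block its adjusted p was 0.0513.

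The 3 other probe sets of Slc32a1 did not follow the brightest one. The brightest one had the lowest mean intensity of all at E9.5, 13.67 against 25.17, 22.67 and 22.17. The second-brightest read 21 to 29 at E9.5, 24 to 29 at E11.5 and 23 to 27 at E13.5 and passed in neither interval (0.05 and -0.10). The third-brightest rose by 0.36 ± 0.14 (adjusted p = 0.0332) and then fell (-0.47 ± 0.14, adjusted p = 0.00743). The dimmest did not pass in the earlier interval (0.19 ± 0.10, adjusted p = 0.106) and fell in the later one (-0.75 ± 0.10, adjusted p = 1.8e-06). The rise of Slc32a1 after E11.5 thus rests on 1 of 4 probe sets, and which of them read the Slc32a1 transcript was not tested.

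**Figure D3:**
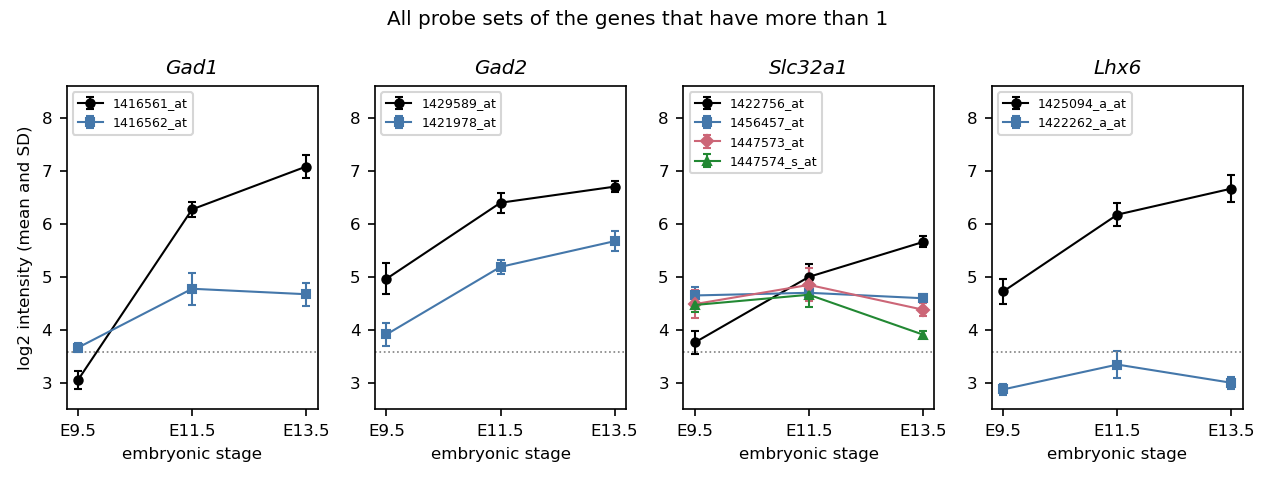
Mean log2 intensity with SD (y axis) by stage (x axis; n = 6, 4 and 6 arrays) for every probe set of Gad1, Gad2, Slc32a1 and Lhx6, the genes with more than 1; the dotted line is an intensity of 12. The Gad2 lines run together, while after E11.5 the brightest Gad1, Slc32a1 and Lhx6 probe sets (black) go up by 0.81, 0.66 and 0.49 and the other probe sets of these genes do not.

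Among the factors of the ventral telencephalon, Gsx2, which specifies progenitors of the lateral ganglionic eminence, had 1 probe set. Its intensities were 13 to 18 at E9.5 (median 15.5), 24, 36, 36 and 48 at E11.5, and 26 to 33 at E13.5 (median 31.5). All E11.5 arrays lay above the E9.5 arrays, while E13.5 fell inside the wide E11.5 range. Gsx2 rose by 1.18 ± 0.14 between E9.5 and E11.5 (2.27-fold, adjusted p = 3.8e-07).

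Between E11.5 and E13.5 Gsx2 gave a difference of -0.19 ± 0.14 (95% interval -0.48 to 0.10, adjusted p = 0.252). Without the E11.5 sample 33, the lowest of its stage at 24, the difference was -0.37 and passed the test (adjusted p = 0.0111). Without the E11.5 sample 52, the highest at 48, it was -0.04 and did not pass (adjusted p = 0.814). The later change was smaller than the earlier by a log2 difference of -1.38 ± 0.25 (adjusted p = 9.7e-05). Within E13.5, the 3 B63 arrays (32 or 33) read above the 3 B62 arrays (26 to 31).

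Dlx2, which acts with Dlx1 in progenitors and early postmitotic cells, shared that shape. Its intensities were 73 to 113 at E9.5 (median 112), 258, 250, 291 and 281 at E11.5, and 229 to 284 at E13.5 (median 261). E11.5 and E13.5 overlapped, and both lay above every E9.5 array. Dlx2 rose by 1.42 ± 0.11 to E11.5 (2.67-fold, adjusted p = 1.9e-09) and then gave -0.07 ± 0.11 (95% interval -0.30 to 0.17, adjusted p = 0.651), a difference between the intervals of -1.48 ± 0.20 (adjusted p = 4.2e-06). The B63 arrays at E13.5 were above the B62 arrays by 0.21, without overlap. Dlx2 and Gsx2 were the 2 genes of the 9 with such a prefix split, which 1585 of 18193 genes showed.

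Dlx1, the neighbour of Dlx2, went on rising. Its intensities were 65 to 87 at E9.5 (median 81.5), 149, 181, 148 and 138 at E11.5, and 387 to 413 at E13.5 (median 393.5). The stages did not overlap, and the E13.5 arrays were the tightest set of the 9 genes, with an SD of 0.04 on the log2 scale. Dlx1 rose by 0.98 ± 0.09 (1.97-fold, adjusted p = 2.6e-08) and then by 1.38 ± 0.09 (2.59-fold, adjusted p = 2.1e-10), in all 5.12-fold. At E9.5 the samples 13 and 15 were the lowest for Dlx1, at 65 and 68, against 80 to 87 on the other 4.

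Dlx5, a factor of postmitotic cells of the ganglionic eminences and of the pharyngeal arches, rose in both intervals. Its intensities were 71 to 117 at E9.5 (median 83.5), 208, 138, 166 and 188 at E11.5, and 292 to 325 at E13.5 (median 321.5), with no overlap between stages. It rose by 1.0 ± 0.12 (2.0-fold, adjusted p = 5.0e-07) and by 0.85 ± 0.12 (1.81-fold, adjusted p = 4.4e-06). A difference between these 2 changes did not pass the test.

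Dlx6, the neighbour of Dlx5, was the one gene that changed later only. Its intensities were 23 to 32 at E9.5 (median 27.5), 30, 27, 25 and 31 at E11.5, and 44 to 71 at E13.5 (median 53.5). The E11.5 arrays lay wholly within the E9.5 range, and every E13.5 array lay above both. The difference was 0.03 ± 0.12 between E11.5 and E9.5 (95% interval -0.21 to 0.28, adjusted p = 0.821) and 0.95 ± 0.12 between E13.5 and E11.5 (1.93-fold, adjusted p = 8.7e-07). The later change was larger than the earlier by 0.91 ± 0.21 (adjusted p = 0.00108).

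Lhx6 marks interneurons that come from the medial ganglionic eminence, and it is also expressed in the mesenchyme of the oral arch. Its intensities were 23 to 34 at E9.5 (median 25), 66, 64, 71 and 90 at E11.5, and 77 to 125 at E13.5 (median 101). E11.5 lay above E9.5 on every array, while the highest E11.5 array, sample 52 at 90, exceeded the lowest E13.5 array. Lhx6 rose by 1.45 ± 0.14 (2.73-fold, adjusted p = 2.5e-08) and by 0.49 ± 0.14 (1.41-fold, adjusted p = 0.00538).

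The later rise of Lhx6 did not pass when its probe sets were averaged (0.073, adjusted p = 0.595). On the brightest probe set the later rise was smaller than the earlier (log2 difference -0.96 ± 0.25, adjusted p = 0.00298). With the title prefix as a random block, the later rise itself (0.49) had an adjusted p of 0.0673. The other Lhx6 probe set was dim on every array except the E11.5 sample 52, at 13 (7 or 8 at E9.5, 9 to 13 at E11.5, 7 to 9 at E13.5), and it rose by 0.47 ± 0.10 (adjusted p = 0.000639) and then fell (-0.34 ± 0.10, adjusted p = 0.00781). Over all 15 probe sets of the 9 genes, 12 rose and none fell in the earlier interval (52.4% of all probe sets passed in either direction), and 7 rose and 3 fell in the later one (51.5% passed). The 3 that fell were the dim Lhx6 probe set and 2 of Slc32a1.

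The related genes were set against each other within each array, so that any factor common to an array cancels; the size of such a difference reflects the probe sets, and only its change between stages was tested (exact permutation over arrays, 2-sided, 6 tests, smallest possible p 0.00476). Gad1 minus Gad2 was -1.91 ± 0.36 (SD, n = 6) at E9.5, -0.13 ± 0.27 (n = 4) at E11.5 and 0.38 ± 0.22 (n = 6) at E13.5. The change to E11.5 was 1.78 as measured and 1.25 with values under 12 set to 12, since Gad1 was dim at E9.5 (exact permutation p = 0.00476 and adjusted p = 0.00952 for either), and the change to E13.5 was 0.50 (exact permutation p = 0.019, adjusted p = 0.0286). Between the dimmer probe sets of both genes the 2 changes were -0.16 (exact permutation, adjusted p = 0.51) and -0.59 (adjusted p = 0.0381). The later change thus passed in opposite directions, and which gene changed more depended on the probe set. On the brightest probe sets the later change did not pass without the E11.5 sample 33 (0.48, adjusted p = 0.0571) or 51 (0.39, adjusted p = 0.0857).

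Dlx1 minus Dlx2 was -0.38 ± 0.24 (n = 6) at E9.5, -0.81 ± 0.25 (n = 4) at E11.5 and 0.63 ± 0.13 (n = 6) at E13.5. The change to E13.5 was 1.44 (exact permutation p = 0.00476, adjusted p = 0.00952), and every E13.5 array was above 0 where every E11.5 array was under it. The change to E11.5 was -0.44 (exact permutation p = 0.0381, adjusted p = 0.0457), and its adjusted p lay between 0.0571 and 0.1 when any array but the E9.5 sample 13 and the E11.5 sample 36 was left out of these 2 stages. Dlx5 minus Dlx6 was 1.65 ± 0.25 (n = 6) at E9.5, 2.62 ± 0.19 (n = 4) at E11.5 and 2.53 ± 0.22 (n = 6) at E13.5. Its change to E11.5 was 0.97 (exact permutation p = 0.00476, adjusted p = 0.00952), and its later change was -0.09 (exact permutation p = 0.51, adjusted p = 0.51). On the single probe set of each gene, neighbours on a chromosome thus changed by unequal amounts beyond the spread between arrays. For Dlx5 and Dlx6 this was up to E11.5, and for Dlx1 and Dlx2 after it. Dlx6 read 23 to 32 at E9.5 and 25 to 31 at E11.5, at or under the array median of 32. A within-array difference does not remove an effect of the labelling kit on a probe set, so after E11.5 kit and stage cannot be told apart.

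**Figure D4:**
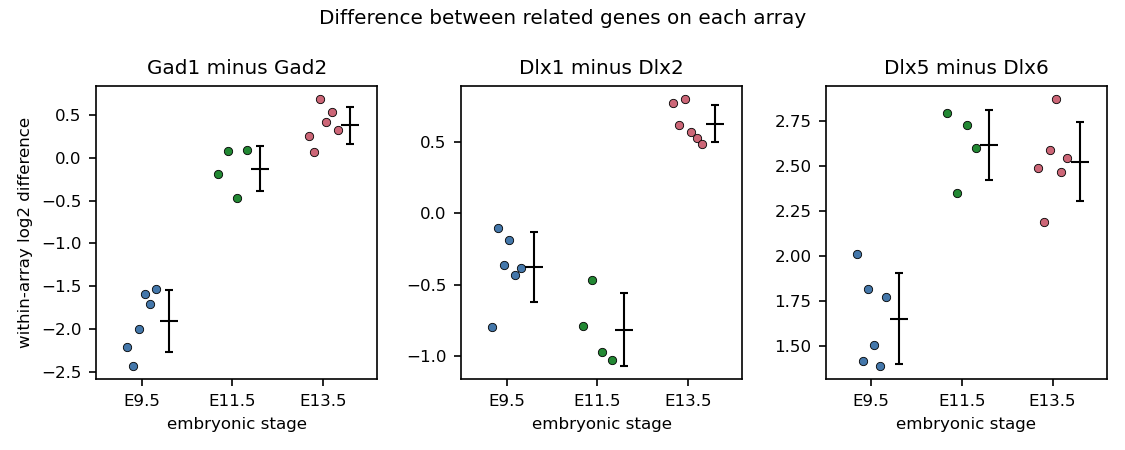
Within-array log2 difference (y axis) of Gad1 minus Gad2, Dlx1 minus Dlx2 and Dlx5 minus Dlx6 by stage (x axis); points are arrays (6, 4 and 6) and bars the mean and SD. Dlx1 minus Dlx2 is under 0 on all E9.5 and E11.5 arrays and above 0 on all E13.5 arrays, and Dlx5 minus Dlx6 is higher on all E11.5 and E13.5 arrays than on any E9.5 array.

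The other genes of GABA handling were few on the annotated array, and the counts of the lists that follow stand beside 31.0% of all genes up and 26.9% down in the earlier interval, and 27.9% up and 27.0% down in the later one. Abat, which degrades GABA, rose by 0.63 ± 0.13 (adjusted p = 0.000272) and by 0.42 ± 0.13 (adjusted p = 0.00933) on the brighter of its probe sets, while its other probe set passed in neither interval. The GABA transporter gene Slc6a13, active in meninges, did not pass up to E11.5 (-0.16 ± 0.09, adjusted p = 0.14) and rose by 0.81 ± 0.09 after it (adjusted p = 2.1e-07). Of 16 GABA receptor subunit genes measured, 4 rose, 1 fell and 11 did not pass in the earlier interval (median 0.03), and 6 rose, 1 fell and 9 did not pass in the later one (median 0.23).

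Gabbr1, a subunit of the metabotropic GABA-B receptor, rose in both intervals, by 1.68 ± 0.08 (adjusted p = 2.7e-12) and 1.42 ± 0.08 (adjusted p = 2.4e-11), though 1 of its 3 other probe sets passed in neither. Gabrb2, a beta subunit of the ionotropic GABA-A receptor, rose by 1.17 ± 0.14 and 0.50 ± 0.14, and 1 of its 4 other probe sets fell in the later interval. Gabrb1 and Gabra2 rose after E11.5, each with 1 of its other probe sets falling. The difference was 1.73 ± 0.11 (adjusted p = 1.2e-10) for Gabrb1. Gabra2 was dim at E11.5, with a mean intensity of 10.2, and with values under 12 set to 12 its difference was 1.25 ± 0.09 (adjusted p = 3.7e-08). The summed intensity of the 16 genes was 317 to 343 at E9.5, 561 to 663 at E11.5 and 1241 to 1291 at E13.5. Gabbr1 alone had mean intensities of 102, 327.5 and 871.2 at these stages. Of the 16 genes, 6, 5 and 5 had a mean at or under 12 at E9.5, E11.5 and E13.5.

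Of 12 other ventral forebrain progenitor factors, 5 rose and 3 fell up to E11.5 (median 0.16), and 1 rose and 8 fell after it (median -0.71). Gsx1, the relative of Gsx2, rose by 1.36 ± 0.10 and then fell (-0.95 ± 0.10, adjusted p = 1.1e-07), where Gsx2 did not pass. Hes5, a Notch target of progenitors, rose by 1.64 ± 0.11 and fell (-2.21 ± 0.11, adjusted p = 1.7e-12). Nkx2-1, the factor of the medial ganglionic eminence that lies upstream of Lhx6, passed in neither interval (0.19 ± 0.16 and -0.23 ± 0.16). Sp8 fell after E11.5 (-2.50 ± 0.09). Shh, a ventral signal, rose by 1.24 up to E11.5 and then fell (-2.85 ± 0.10), while its other probe set fell in both intervals.

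Of 14 other postmitotic ventral forebrain factors, 7 rose and 2 fell up to E11.5 (median 0.59), and 5 rose and 6 fell after it (median -0.17). Lhx8, a LIM factor of cholinergic and medial eminence cells, rose by 2.99 ± 0.27 (adjusted p = 1.3e-08) and then gave -0.20 ± 0.27 (adjusted p = 0.55). Bcl11b, a factor of striatal and deep cortical neurons, rose by 4.23 ± 0.14 and 2.36 ± 0.14, in the same direction on all 4 of its probe sets.

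Of 19 other interneuron lineage and subtype genes, 13 rose and none fell up to E11.5 (median 0.40), and 10 rose and 2 fell after it (median 0.31). Sst, the somatostatin of interneurons, rose by 0.76 ± 0.22 (adjusted p = 0.0062, arrays overlapping) and by 1.15 ± 0.22 (adjusted p = 0.00017). Npy, another interneuron peptide, rose by 0.54 ± 0.20 (adjusted p = 0.025) and 1.78 ± 0.20 (adjusted p = 2.0e-07). Cxcr4, the chemokine receptor of migrating interneurons and of many other cells, rose by 0.37 ± 0.12 and then fell (-1.18 ± 0.12, adjusted p = 3.7e-08). Vip and Erbb4 were dim at every stage.

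Genes of other neuron classes and tissues moved over the same stages. Of 11 factors of midbrain, hindbrain and spinal GABAergic neurons, 7 rose and 2 fell up to E11.5 (median 0.40), and 4 rose and 4 fell after it (median 0.037). Lhx1 was up in the earlier interval by 3.32 ± 0.13 (adjusted p = 1.1e-13) and Gata2, on 1 of its 2 probe sets, was up by 1.97 ± 0.11. Tal2, of the same list, fell in both intervals on both of its probe sets (-1.05 and -0.85 on the brighter one). Of 16 glutamatergic lineage genes, 11 rose and 2 fell up to E11.5 (median 0.81), and 4 rose and 4 fell after it (median 0.058). The glutamate transporter gene Slc17a6, with a mean intensity of 11.7 at E9.5, was up by 3.19 ± 0.12 with values under 12 set to 12 (adjusted p = 1.5e-10). The rise of Gad1 up to E11.5 was thus accompanied by rises of Lhx1, Gata2 and the excitatory marker Slc17a6, but not of Tal2. The parts of other neuron classes in the rise of Gad1 were not tested.

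Of 18 pharyngeal arch and facial mesenchyme genes, 9 rose and 1 fell up to E11.5 (median 0.30), and 5 rose and 7 fell after it (median -0.23). Their summed intensity was 2265 to 2456 at E9.5, 3506 to 3792 at E11.5 and 3279 to 3638 at E13.5. Hand2, a factor of the lower jaw arch, rose by 0.40 ± 0.12 and 2.10 ± 0.12, though neither of its other probe sets rose, and Msx1 rose by 1.08 ± 0.08 and then fell (-0.41 ± 0.08), while its other probe set rose in both intervals. Dlx3, an arch and ectoderm gene of the same family, passed in neither interval (0.10 ± 0.11 and -0.22 ± 0.11), and Dlx4, on 1 of its 2 probe sets, rose by 0.72 ± 0.14 and then fell (-0.59 ± 0.14, adjusted p = 0.0014). None of the 18 genes had a stage mean at or under 12, and the part of arch tissue in the values of Dlx1, Dlx2, Dlx5, Dlx6 and Lhx6 was not tested.

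**Figure D5:**
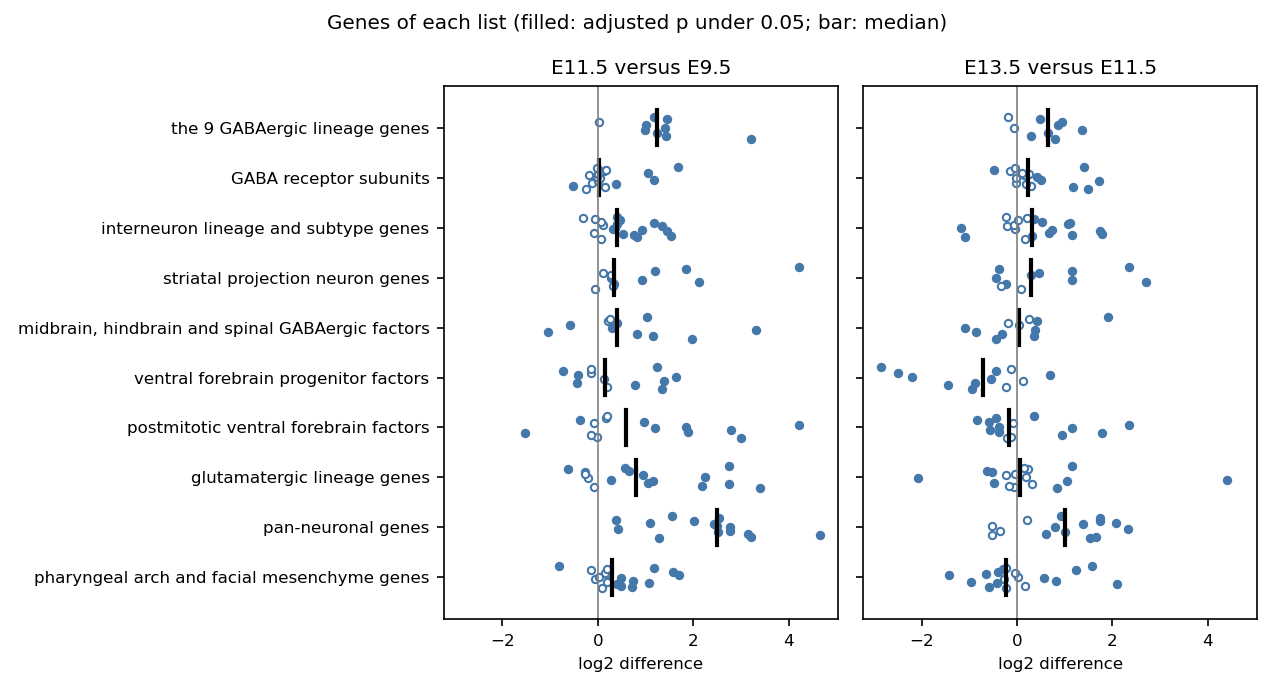
Log2 difference (x axis) of every measured gene in each list (y axis), the 9 GABAergic lineage genes at the top and left out of the other lists, for E11.5 against E9.5 on the left and E13.5 against E11.5 on the right. Filled points passed the test and bars are medians: the bar of the 9 genes lies at 1.24 and 0.66, that of pan-neuronal genes at 2.5 and 1.01, and that of ventral forebrain progenitor factors at 0.16 and -0.71.

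Likeness of pattern was measured as the root mean square difference of log2 intensities over the 16 arrays, each gene centred on its own mean. The measured values were used, so every distance from Gad1 takes in its dim E9.5 readings of 7 to 10. Nearest to Gad1 were Add2 (0.25), Lhx1 (0.29), Aplp1 (0.29), Slc17a6 (0.30) and Snap91 (0.31). Nearest to Dlx2 were Foxj2, Arhgef12, Gdpd1, Zc2hc1a and Nfatc4 (0.14 to 0.17), to Gsx2 Rnf150, Magef1, Tob1, Zdhhc8 and Ggnbp2 (0.16 to 0.19), and to Lhx6 Ddr2, Tnik, Tmem169, Tafa2 and Fam124a (0.21 to 0.23). Among the 9 genes themselves, Gad2 and Slc32a1 were closest at 0.23, Dlx2 and Gsx2 stood at 0.28, and Gad1 and Dlx6 were furthest apart at 1.53.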

How the data were processed

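The deposited table holds 1 linear intensity per probe set and array, background-corrected and normalized with RMA by the authors, per the submitters' processing notes (version not given in the sources used here), and rounded to whole numbers. Of 45101 probe sets, 64 controls were left out, 34945 named 1 gene in GEO's platform annotation, 932 several and 9160 none. Log2 of the deposited intensities was fitted over all 16 arrays, with stage as the factor, by limma's lmFit and eBayes (version 3.58.1, R 4.3.3), 1 probe set a gene, Benjamini-Hochberg over 18193 genes; probe sets were fitted likewise over all non-control ones. No detection call was used; precision is limited by 6, 4 and 6 arrays. The fit was tested on simulated data. Lists leave out genes the annotation did not name, which were not used here. The genes and lists were chosen with earlier results of these data known. Of each list, the genes past the threshold with the 3 largest differences per interval, and defining markers, could be named. Alternatives covered probe choice, normalization, dim values, variance model, array weights, title prefix and each array left out.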

Additional observations from a re-analysis of the deposited data

Results flagged for a closer look

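Dixon's test over the 3 stages of the 15 probe sets (45 groups) singled out 2 values, and chance flags about 1 group in 20. The second-brightest Slc32a1 probe set read 27 on the E13.5 sample B63E6K, above 23 or 24 on the other 5 arrays. The dimmest Slc32a1 probe set read 26 on the E9.5 sample 16, above 20 to 22 on the other 5. Neither was the brightest Slc32a1 probe set.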

How the results depend on the processing

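Over 27 alternative settings, 930 of 963 values of single genes kept their direction and side of the threshold, and 10 of the 33 changes came from the choice of probe set. Of 126 values of the gene pairs, 111 kept both. With the second-brightest probe set, 4 of the 9 genes, in place of 7, rose between E11.5 and E13.5, and Lhx6 fell (adjusted p = 0.00783). Under that choice the difference between E13.5 and E11.5 was -0.10 for Gad1, -0.10 for Slc32a1 and -0.34 for Lhx6, that between E13.5 and E9.5 was -0.053 for Slc32a1, and the changes of Gad1 minus Gad2 were -0.16 and -0.59. Averaging the probe sets of each gene, the later difference of Slc32a1 was -0.17 (adjusted p = 0.0317), that of Lhx6 was 0.073 (adjusted p = 0.595) and that of Gad1 minus Gad2 was -0.042. Left out one at a time, the E9.5 sample 16 and the E11.5 sample 52 turned the earlier difference of Dlx6 to -0.016 and -0.012 (range -0.016 to 0.092), and the E11.5 sample 33 turned the difference of changes of Dlx5 to 0.029 (range -0.37 to 0.029), none past the test. The later change of Gad1 minus Gad2 was 0.39 to 0.58 and the earlier one of Dlx1 minus Dlx2 was -0.55 to -0.37 with single arrays left out, not past the test without the E11.5 samples 33 or 51 for Gad1 minus Gad2. Counts of called genes stayed at 8 (earlier), 6 to 7 (later) and 9 (whole span) without any single array. With the title prefix as a random block, the later rises of Gad2 and Lhx6 were no longer called. Quantile normalization and median centring moved no call of the 9 genes and no median of all genes by over 0.1. The cause of these changes was not tested. No paired analysis was possible because the stages share no replicate numbers. The number of arrays and the dim E9.5 values of Gad1 limit the sizes given.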
